A study of Mus musculus with 24 samples.

Results

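The messenger RNAs of 10 interleukin receptor chains were followed through 24 RNA sequencing libraries of mouse T cells: Il2ra, Il2rb, Il2rg, Il7r, Il4ra, Il21r, Il6ra, Il12rb1, Il12rb2 and Il18r1. They were chosen by name, as the chains through which T cells receive IL-2, IL-7, IL-15, IL-4, IL-21, IL-6, IL-12 and IL-18, and they are 10 of the 35817 genes in the tables. All 10 passed the filter on low counts in each fit, which keeps genes with more than 1 CPM (counts scaled to library size) in at least 3 libraries. The groups were CD4+ or CD8+ T cells from the spleen, from Cat-Tg or wild-type (WT) mice of the C57BL/6 background, before transplantation (pre-tx) or on day 7 after it (post-tx), which makes 8 groups of 3 libraries each. Cat-Tg mice carry a heterozygous transgene for an N-terminally truncated, stabilised human β-catenin, placed in a vector whose proximal Lck promoter is known to act in thymocytes and T cells. Several founders were bred to C57BL/6, and the sources used here do not say which line was sequenced. The mice were 8 to 12 weeks old. For post-tx libraries CD4+ and CD8+ cells of 1 genotype were mixed in equal numbers and given, with T cell-depleted bone marrow from WT mice, to lethally irradiated BALB/c recipients, and cells bearing the donor H-2Kb molecule were sorted from the recipients' spleens. Pre-tx cells were sorted from fresh spleens and had met neither irradiation nor a foreign host. The human transgene itself was not analysed here.

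Interleukin receptors are built from shared parts. The α chain Il2ra (CD25) raises the affinity for IL-2, Il2rb (CD122) carries the IL-2 and IL-15 signal, and Il2rg, the common γ chain, also completes the receptors for IL-4, IL-7 and IL-21. Naive and memory T cells are known to keep Il7r (CD127) and Il6ra high and to lower both when they become effector cells, while activated T cells raise Il2ra, Il2rb and the IL-12 receptor chains, and regulatory T cells hold Il2ra high at rest.

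RefSeq promoter windows (GRCm38.p6) were matched by symbol for 8 of the 10 genes, as 10 windows of the 250 bases before an annotated start. These are printed for Il12rb2 and Il7r, which moved in opposite directions after transplantation in Cat-Tg cells, and for Il2ra, whose level spanned the widest range. Il18r1 is printed too, as the other gene with a match to the STAT letters. Capitals mark matches, on either strand, to the STAT palindrome TTCNNNGAA, the T-box core TCACAC, the TCF/LEF core CTTTGA, the AP-1 element TGANTCA or the FOXO element GTAAACA.
Il12rb2 (chr6:67376189-67376438, minus strand): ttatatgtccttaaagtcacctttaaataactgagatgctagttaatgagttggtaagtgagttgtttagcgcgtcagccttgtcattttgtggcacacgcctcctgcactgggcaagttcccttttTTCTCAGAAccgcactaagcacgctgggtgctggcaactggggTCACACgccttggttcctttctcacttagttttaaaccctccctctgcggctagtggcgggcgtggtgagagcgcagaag
Il7r (chr15:9529877-9530126, minus strand): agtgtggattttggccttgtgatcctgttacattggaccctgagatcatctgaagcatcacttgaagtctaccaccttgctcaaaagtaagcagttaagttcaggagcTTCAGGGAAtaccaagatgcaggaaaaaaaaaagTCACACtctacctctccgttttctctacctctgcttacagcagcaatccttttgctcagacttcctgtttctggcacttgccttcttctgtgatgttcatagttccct
Il18r1 (chr1:40465756-40466005, plus strand): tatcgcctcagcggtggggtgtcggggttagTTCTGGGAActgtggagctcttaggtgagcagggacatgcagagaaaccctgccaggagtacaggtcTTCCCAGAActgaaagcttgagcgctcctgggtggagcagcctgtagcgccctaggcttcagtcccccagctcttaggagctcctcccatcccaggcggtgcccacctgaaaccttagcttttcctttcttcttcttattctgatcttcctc
Il2ra (chr2:11642542-11642791, plus strand): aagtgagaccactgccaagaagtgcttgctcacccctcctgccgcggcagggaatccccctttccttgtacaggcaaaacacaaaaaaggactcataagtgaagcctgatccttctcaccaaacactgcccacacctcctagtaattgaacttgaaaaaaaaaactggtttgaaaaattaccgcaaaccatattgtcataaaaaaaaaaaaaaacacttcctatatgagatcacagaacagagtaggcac
The Il12rb2 window held the STAT letters at position 128 and the T-box letters at position 171, counted from the 5′ end, and the Il7r window held them at positions 109 and 143. Il18r1 had 2 STAT matches, at positions 32 and 99, in 1 of its 3 windows. Among the 8 matched genes, STAT letters were found in 3, T-box letters in the 2 named, FOXO letters in 1 (Il21r), and TCF/LEF or AP-1 letters in 0. Counted by window, STAT letters were in 3 of 10, T-box letters in 2, FOXO letters in 1 and the other letters in 0. Of all 32851 promoter windows of the same length, 7.02% held the STAT letters, 12.3% the T-box, 3.17% the FOXO, 13.8% the TCF/LEF and 6.75% the AP-1 letters. A match is a run of letters and not a measured binding site, and genes without a match in this window may have sites elsewhere.

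Library totals ranged from 11135713 to 50519825 estimated counts, and 3 counts corresponded to between 0.0594 and 0.269 CPM. In the Cat-Tg libraries and the WT post-tx libraries the co-receptors matched the labels: Cd8a made up 99.4% to 99.7% of Cd4 plus Cd8a on average in the 3 CD8+ groups and 0.318% to 2.39% in the 3 CD4+ groups. The libraries labelled WT pre-tx stood apart. Cd8a made up 57.4% ± 7.01 (SD, n = 3) in those labelled CD8+ and 60.9% ± 7.37 in those labelled CD4+, so CD8+ and CD4+ were not compared in them. Their 14 B cell markers summed to 13500 and 13000 CPM, where Cat-Tg pre-tx libraries had 1690 (CD8+) and 2550 (CD4+) and post-tx groups 716 to 2180, and all 14 markers were lower in Cat-Tg than in WT in both pre-tx comparisons. Their 12 T cell markers summed to 2110 and 2810 CPM, against 9110 and 7410. Wherever WT cells are named pre-tx, or compared with pre-tx, the libraries labelled so are meant, and their co-receptors go against a pure CD8+ or CD4+ sort. Each result that rests on them carries this difference, and there is no other WT pre-tx library with which to repeat it. Because these are bulk libraries, fewer cells of a type and less RNA per cell cannot be told apart.

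**Figure D1:**
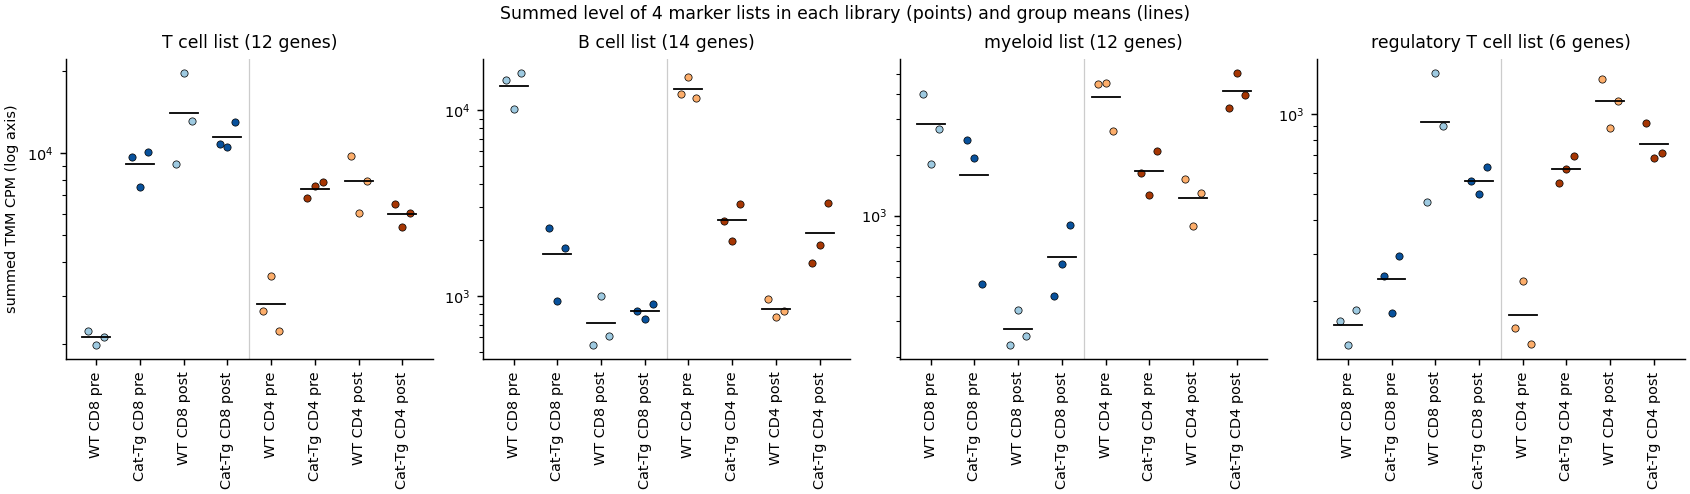
Summed TMM-scaled CPM (log axis) of T cell, B cell, myeloid and regulatory T cell markers in each of the 24 libraries (points) and their group means (lines). The WT pre-tx libraries sit lowest for the T cell list, with group means of 2110 and 2810 CPM, and highest for the B cell list, with 13500 and 13000 CPM.

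After transplantation Il2rb and Il12rb1 rose in all 4 comparisons of post-tx with pre-tx, Il12rb2 and Il2rg rose in 3, and Il6ra fell in 3. Between 4 and 9 of the 10 receptor genes passed the test in these comparisons, and between 0 and 4 in those of Cat-Tg with WT. Levels below are CPM after TMM scaling, and a gene is said to rise, fall or differ where the adjusted p of edgeR's quasi-likelihood test was at most 0.05. In Cat-Tg CD8+ cells 5 receptor genes rose (Il12rb2, Il2ra, Il12rb1, Il2rb and Il2rg) and 3 fell (Il6ra, Il7r and Il4ra), where 8.72% of all 15960 genes tested rose and 5.23% fell. In WT CD8+ cells 3 rose (Il12rb1, Il2rb and Il18r1) and 1 fell (Il6ra), against 13.2% and 10.4% of all genes. In Cat-Tg CD4+ cells 4 rose (Il12rb2, Il12rb1, Il2rb and Il2rg) and 1 fell (Il7r), against 16.2% and 28.9% of 17227 genes. In the same comparison 6 of 6 red cell and 8 of 12 myeloid markers were higher and 4 of 12 T cell markers lower, with a myeloid sum of 1650 CPM pre-tx and 4150 CPM post-tx, and their part in these changes was not tested. WT CD4+ cells had 7 higher (Il12rb2, Il2ra, Il18r1, Il2rb, Il7r, Il12rb1 and Il2rg) and 2 lower (Il4ra and Il6ra), against 14.7% and 9.61%. The median log2 fold change of the 10 was 1.3 in Cat-Tg CD8+, 0.24 in WT CD8+, 0.66 in Cat-Tg CD4+ and 2.11 in WT CD4+, where the medians of all tested genes were -0.26, -0.23, -0.38 and -0.13.

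**Figure D2:**
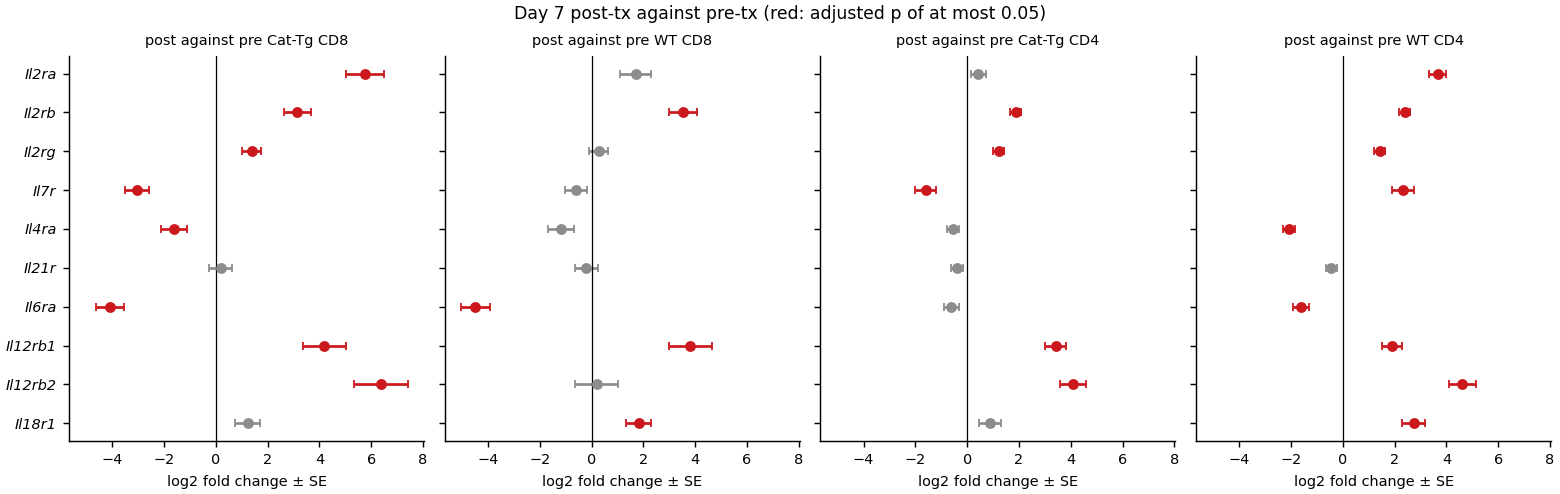
Log2 fold change of post-tx against pre-tx (point) with its standard error (bar) for the 10 receptor genes in the 4 combinations of genotype and cell type, red where the adjusted p is at most 0.05. Il2rb and Il12rb1 lie to the right of 0 in all 4 panels, while Il7r lies at -3.04 and -1.6 in Cat-Tg cells and at 2.32 in WT CD4+ cells.

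The scaling of the libraries matters to these counts. When libraries were scaled to their T cell markers instead of by TMM, the median log2 fold change of all genes became -2.78 for post-tx against pre-tx in WT CD8+ cells and -1.41 in WT CD4+ cells, and -2.3 and -1.52 for Cat-Tg against WT in CD8+ and CD4+ pre-tx cells, while in the Cat-Tg comparisons of post-tx with pre-tx it was -0.45 and 0.27. With a B cell score as a covariate, which nearly coincides with the groups, 0 of the 10 were called in any of the 4 comparisons of post-tx with pre-tx, in either pre-tx comparison of genotype or in either interaction. Over all genes few or 0 were called in them either, as given near the end, so this says nothing about the receptor genes in particular. With the T cell scaling 0 receptor genes rose and 5 fell in WT CD8+ cells, and 4 rose and 3 fell in WT CD4+ cells. Beside these WT counts stand the medians of all genes of -2.78 and -1.41, and the numbers of all genes called are given near the end. The WT counts under this scaling cannot be read apart from the genes at large. Cat-Tg CD8+ cells had 5 higher and 3 lower, and Cat-Tg CD4+ cells had 6 higher and 0 lower, beside medians of all genes of -0.45 and 0.27. The share of all genes called under this scaling is not given for these Cat-Tg comparisons, so the counts cannot be set against it.

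Genotype was compared within each cell type and time. Between Cat-Tg and WT CD8+ pre-tx libraries, Il7r was higher and Il2ra and Il12rb2 were lower in Cat-Tg, that is 1 and 2 of 10, where 4.5% of all genes were higher and 4.47% lower. In CD8+ post-tx libraries 0 of the 10 passed the test in either direction, against 1.1% and 0.57% of all genes. At an unadjusted p under 0.05 there were 2, Il12rb2 and Il2rg (Il2rg named after its value was seen), limma-voom called 2 and DESeq2 called 1. These further counts have no share of all genes beside them. Between CD4+ pre-tx libraries 3 were higher in Cat-Tg (Il7r, Il2ra and Il18r1) and 1 was lower (Il12rb1), against 13.3% and 7.18%. In CD4+ post-tx libraries 2 were higher (Il4ra and Il6ra) and 0 lower, against 3.7% and 6.47%. The median log2 fold changes of the 10 were 0.02, 0.28, -0.13 and -0.26 in these 4 comparisons, and those of all genes were -0.07, -0.18, 0.03 and -0.19. With the T cell scaling, 8 of the 10 were lower and 0 higher in Cat-Tg CD8+ pre-tx cells, and 7 were lower and 2 higher in Cat-Tg CD4+ pre-tx cells, where 9817 of 15960 and 8076 of 17227 genes passed the test and the medians of all genes were -2.3 and -1.52, so most of these calls move with the genes at large.

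**Figure D3:**
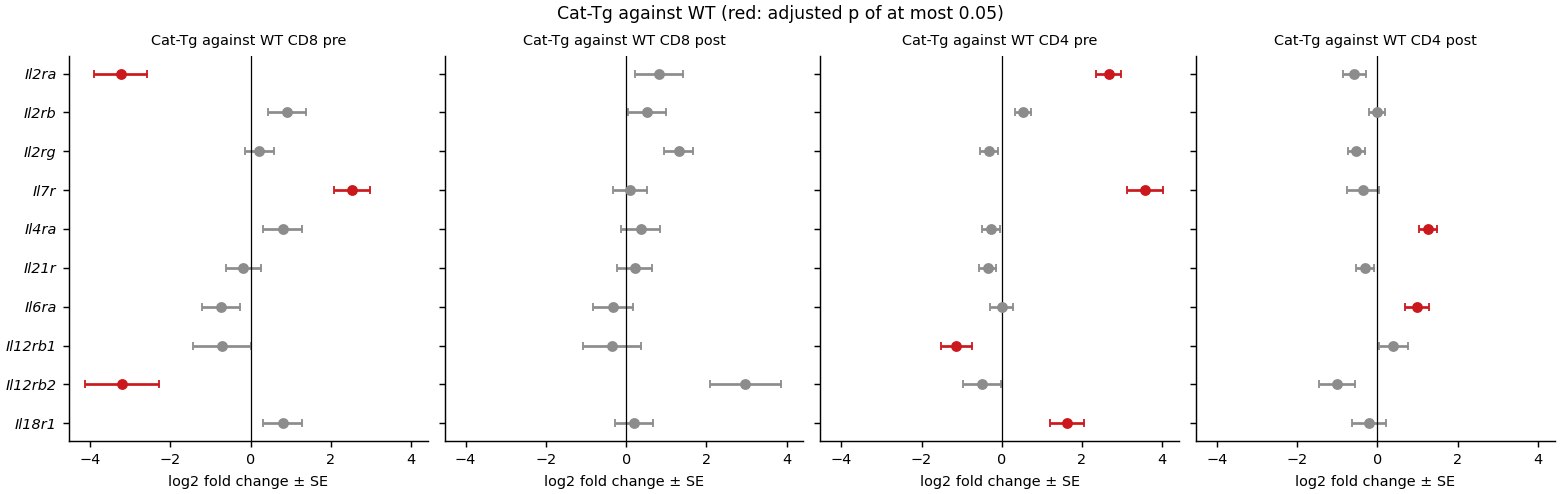
Log2 fold change of Cat-Tg against WT (point) with its standard error (bar) for the 10 receptor genes in CD8+ and CD4+ cells, pre-tx and post-tx, red where the adjusted p is at most 0.05. Pre-tx, Il7r lies to the right of 0 in both cell types, while Il2ra lies at -3.24 in CD8+ and at 2.66 in CD4+ cells.

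Whether transplantation changed a gene differently in the 2 genotypes was tested as an interaction. In CD8+ cells 3 of the 10 passed, where 10.7% of all genes did: Il12rb2 and Il2ra, whose change was more positive in Cat-Tg, and Il7r, whose change was more negative. In CD4+ cells 4 passed, where 21.4% of all genes did: Il7r, Il2ra and Il18r1 with the more negative and Il4ra with the more positive change in Cat-Tg. Il7r and Il2ra passed in both cell types, and the interaction of Il2ra had opposite signs, 4.06 in CD8+ and -3.24 in CD4+ cells.

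**Figure D4:**
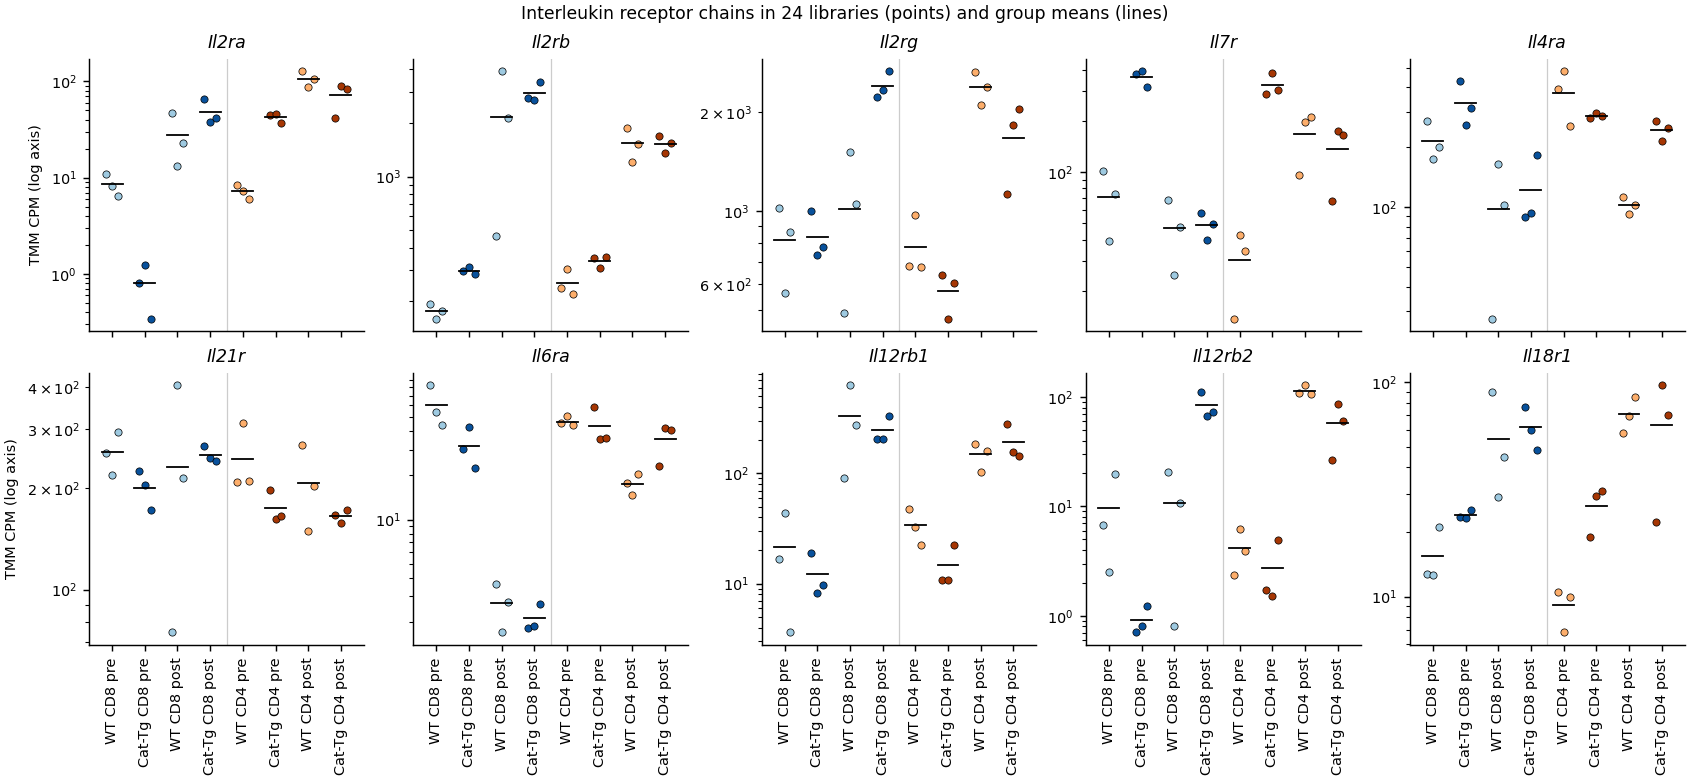
TMM-scaled CPM (log axis) of each receptor gene in the 24 libraries (points) and the means of the 8 groups (lines), CD8+ groups on the left and CD4+ groups on the right of each panel. Il2ra is near 1 CPM in the Cat-Tg CD8+ pre-tx libraries only, the post-tx libraries are high for Il2rb, and the WT CD8+ post-tx points are spread from 465 to 3890 CPM for that gene.

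Il2ra, the α chain of the high-affinity IL-2 receptor, had a 134-fold range between its highest and lowest group means. Cat-Tg CD8+ pre-tx libraries held 0.798, 1.24 and 0.342 CPM, which rest on 17, 32 and 10 counts, and the libraries labelled WT CD8+ pre-tx held 11, 8.09 and 6.44 CPM. The groups did not overlap, and Il2ra was 9.47-fold lower in Cat-Tg (log2 fold change -3.24 ± 0.652 SE, adjusted p = 0.00604). Foxp3, the transcription factor that defines regulatory T cells, differed by -2.97 in the same comparison (adjusted p = 0.0851). The 6 regulatory T cell markers were mixed there, with Tnfrsf18 higher in Cat-Tg, and Nrp1 and Tnfrsf4 lower. Their sum was higher in Cat-Tg (241 against 162 CPM), where Tnfrsf18 alone held 210 against 72.5 CPM. Ctla4 also had a higher mean (12.3 against 5.62 CPM). Foxp3 (3.48 against 29.6), Nrp1 (2.55 against 15.8), Tnfrsf4 (4.05 against 24) and Ikzf2 (7.93 against 14.8) had lower means in Cat-Tg. Cd4 was lower too (1.71 against 96.1 CPM). The part of regulatory T cells in the Il2ra difference was not tested. On day 7 Il2ra reached 65, 37.6 and 41.4 CPM in the Cat-Tg CD8+ libraries, a 54.2-fold rise (5.76 ± 0.726 on the log2 scale, adjusted p = 0.000162). Foxp3 was also higher (3.3 ± 1.04, adjusted p = 0.0474), as were 3 of the 6 regulatory T cell markers in all, and their part in the rise was not tested. WT CD8+ post-tx libraries held 46.5, 13.2 and 23 CPM, and their difference from pre-tx missed the threshold (1.7 ± 0.602, adjusted p = 0.0527). Without WT CD8+ post-tx replicate 1 it was 0.79, and without replicate 2 it was 1.83 with an adjusted p of 0.0306. The interaction of 4.06 ± 0.871 (adjusted p = 0.00789) measures the gap between these changes.

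In CD4+ cells Il2ra ran the other way before transplantation. Cat-Tg CD4+ pre-tx libraries held 45.3, 45.5 and 36.7 CPM against 8.33, 7.29 and 6.02 CPM in WT, 6.33-fold higher (2.66 ± 0.307, adjusted p = 4.78e-05). All 6 regulatory T cell markers moved the same way, from a sum of 177 CPM in WT to 622 CPM in Cat-Tg, with Foxp3 higher by 2.28 ± 0.371 on the log2 scale (adjusted p = 0.000554). The part of these cells in the Il2ra difference was not tested. Post-tx CD4+ libraries held 41.8, 89.7 and 84.3 CPM in Cat-Tg and 127, 86.6 and 105 CPM in WT, which overlapped. Il2ra therefore rose 12.6-fold in WT CD4+ cells (3.66 ± 0.319, adjusted p = 1.3e-06), where 5 of the 6 regulatory T cell markers rose while Foxp3 differed by -0.15 (adjusted p = 0.77), whereas the Cat-Tg difference of 0.42 had an adjusted p of 0.244, and the interaction was -3.24 ± 0.417 (adjusted p = 0.000127). With the T cell scaling the CD4+ pre-tx genotype difference was 1.14 (adjusted p = 0.0131), the interaction was -1.27 (adjusted p = 0.0458), and the Cat-Tg CD4+ rise was 1.1 (adjusted p = 0.0152). Without Cat-Tg CD4+ post-tx replicate 1 the Cat-Tg rise was 0.66 (adjusted p = 0.0438).

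Il2rb, the signalling chain that IL-2 and IL-15 share, rose in every combination. Cat-Tg CD8+ libraries went from 295, 313 and 284 CPM to 2750, 2680 and 3380 CPM, 8.89-fold (3.15 ± 0.523, adjusted p = 0.00139). WT CD8+ libraries went from 194, 160 and 177 CPM to 465, 3890 and 2120 CPM, 11.7-fold (3.54 ± 0.532, adjusted p = 0.000235). The groups did not overlap in either genotype, but the 3 WT post-tx values differ widely. In CD4+ cells Il2rb rose 3.65-fold in Cat-Tg, from 350, 308 and 356 to 1690, 1360 and 1540 CPM (1.87 ± 0.207, adjusted p = 1.42e-05). The WT CD4+ rise was 5.24-fold, from 238, 305 and 220 to 1880, 1210 and 1520 CPM (2.39 ± 0.211, adjusted p = 1.39e-06). Scaled to T cell markers, the WT CD8+ difference was 0.71 (adjusted p = 0.113), and the other 3 rises still passed, at 2.95, 2.48 and 1.1.

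Il2rg, the common γ chain, was the most abundant of the 10 per transcript length, with a mean of 915 deposited TPM over the 24 libraries, although in WT CD8+ post-tx libraries Il2rb averaged 422 and Il2rg 361 TPM. It varied 4.21-fold between group means. In Cat-Tg CD8+ cells it rose from 1000, 734 and 778 to 2230, 2340 and 2660 CPM, 2.6-fold (1.38 ± 0.369, adjusted p = 0.023). Leaving out replicate 2 or 3 of the pre-tx or replicate 1 or 2 of the post-tx libraries ended this call, with estimates of 1.29, 1.26, 1.42 and 1.35. In CD4+ cells the rise was 2.31-fold in Cat-Tg, from 640, 472 and 606 to 1130, 1830 and 2040 CPM (1.21 ± 0.218, adjusted p = 0.000592), and 2.67-fold in WT, from 684, 973 and 677 to 2650, 2110 and 2380 CPM (1.42 ± 0.219, adjusted p = 0.000257). The WT CD4+ difference was 0.14 (adjusted p = 0.627) with the T cell scaling. WT CD8+ libraries held 1020, 564 and 865 CPM pre-tx and 492, 1510 and 1050 CPM post-tx, which overlapped. In deposited TPM they held 853, 600 and 779 pre-tx and 194, 454 and 437 post-tx, which lay apart.

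Because these chains pair on the cell surface, their ratio was computed in each library from the deposited TPM, which accounts for length. Il2rb was 0.198 ± 0.0327 of Il2rg in Cat-Tg CD8+ pre-tx libraries and 0.667 ± 0.038 post-tx (mean ± SD, n = 3). In WT CD4+ cells the ratio was 0.182 ± 0.0125 pre-tx and 0.343 ± 0.0396 post-tx. Both pairs of ranges lie apart, with post-tx higher. For Il2ra per Il2rb the order of pre-tx and post-tx was not shared by the groups. Cat-Tg CD4+ libraries had 0.138 ± 0.0386 pre-tx and 0.0324 ± 0.0149 post-tx, and Cat-Tg CD8+ libraries had 0.00218 ± 0.00129 and 0.0112 ± 0.00375. The libraries labelled WT CD4+ had 0.0199 ± 0.003 pre-tx and 0.0474 ± 0.00207 post-tx, with ranges apart and the opposite order to Cat-Tg CD4+, and WT CD8+ post-tx libraries, between 0.00196 and 0.0818, overlapped those labelled pre-tx. The Cat-Tg CD4+ pre-tx libraries, between 0.113 and 0.182, were the highest for this ratio. These ratios are descriptions of transcripts and were not tested.

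**Figure D5:**
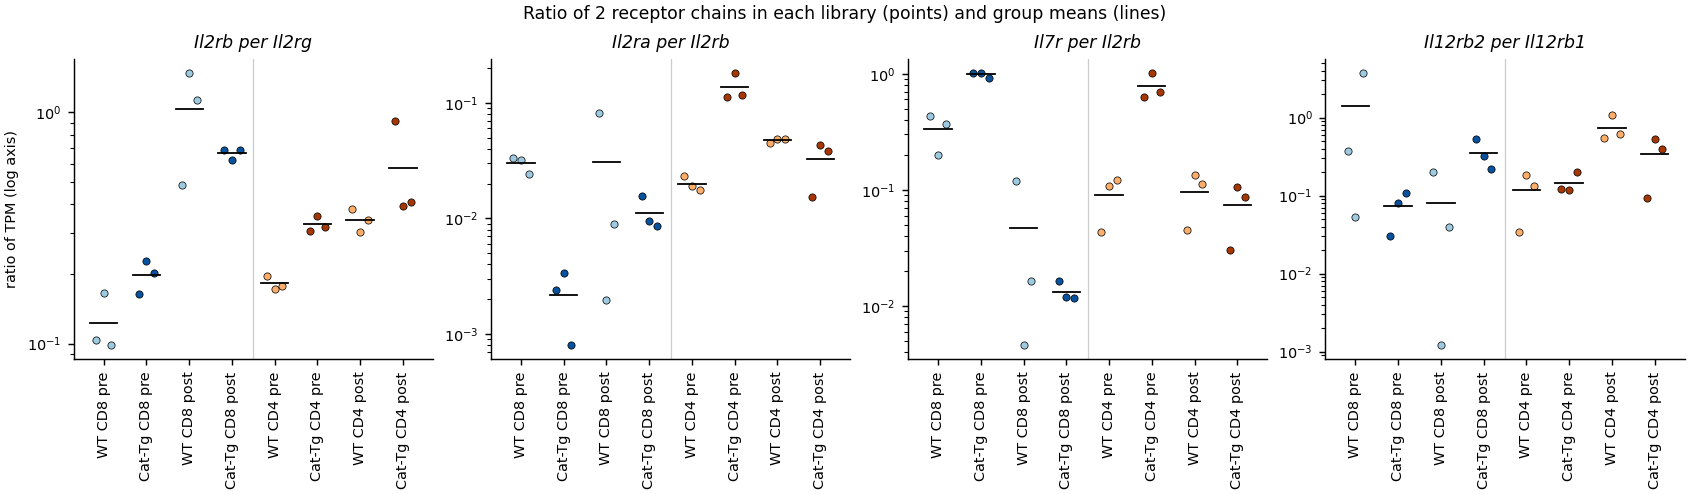
Ratio of the deposited TPM of a pair of receptor chains (log axis) in each library (points) and the group means (lines). Il2rb per Il2rg is 0.198 pre-tx and 0.667 post-tx in Cat-Tg CD8+ libraries, and Il7r per Il2rb is 0.986 and 0.0133 in the same groups.

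Il7r, the α chain of the IL-7 receptor, which supports the survival of resting T cells, was higher in Cat-Tg than in WT before transplantation in both cell types. Cat-Tg CD8+ pre-tx libraries held 380, 391 and 315 CPM and those labelled WT 102, 39.1 and 74 CPM, a 5.76-fold difference (2.53 ± 0.451, adjusted p = 0.00288). In CD4+ pre-tx cells the values were 287, 381 and 304 CPM in Cat-Tg and 13.7, 42.7 and 34.2 CPM in WT, 11.9-fold (3.57 ± 0.439, adjusted p = 7.39e-05). The lowest Cat-Tg library lay above the highest WT library in both cell types. Scaled to T cell markers, the CD8+ difference was 0.29 (adjusted p = 0.614) and the CD4+ difference 2.02 (adjusted p = 0.0026). After transplantation the genotypes overlapped, with 57.2, 40 and 49.6 CPM in Cat-Tg and 68.1, 24.6 and 47.4 CPM in WT CD8+ cells, and 67.9, 175 and 166 CPM in Cat-Tg and 95.8, 196 and 211 CPM in WT CD4+ cells.

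For Il7r, each WT change rests on the libraries labelled WT pre-tx. In those labelled CD4+, Cd8a made up 60.9% of Cd4 plus Cd8a, so genotype and composition cannot be told apart. By TMM, Il7r moved in opposite directions after transplantation in Cat-Tg and WT CD4+ cells. It fell 8.21-fold in Cat-Tg CD8+ cells (-3.04 ± 0.461, adjusted p = 0.000706) and 3.04-fold in Cat-Tg CD4+ cells (-1.6 ± 0.405, adjusted p = 0.00556). In WT CD4+ cells it rose 5.01-fold (2.32 ± 0.417, adjusted p = 0.000893), and in WT CD8+ cells the difference was -0.6 (adjusted p = 0.353), or -1.24 (adjusted p = 0.0296) without post-tx replicate 1. The interactions were -3.93 ± 0.581 (adjusted p = 0.000375) in CD4+ and -2.44 ± 0.612 (adjusted p = 0.0194) in CD8+ cells. The CD8+ interaction missed the threshold without Cat-Tg pre-tx replicate 1 or 2 or post-tx replicate 2 or 3, at -2.26, -2.17, -2.36 and -2.22. With the T cell scaling the WT CD4+ difference was 1.09 (adjusted p = 0.0611), the Cat-Tg CD4+ difference -0.89 (adjusted p = 0.119), the CD8+ interaction -0.21 (adjusted p = 0.847) and the WT CD8+ change -3.03 (adjusted p = 0.000418), while the CD4+ interaction still passed at -1.98 (adjusted p = 0.0233). That WT CD8+ change lies close to the median of all genes under this scaling, given above, and moves with the genes at large. Set against Il2rb, Il7r was 0.986 ± 0.0582 of its TPM in Cat-Tg CD8+ pre-tx libraries and 0.0133 ± 0.00261 post-tx, and the corresponding Cat-Tg CD4+ ratios were 0.782 ± 0.208 and 0.0745 ± 0.0393. WT CD4+ cells had 0.0912 ± 0.0416 and 0.0968 ± 0.046, which overlapped.

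Il4ra, the chain that binds IL-4 and also serves IL-13, fell after transplantation in WT CD4+ and Cat-Tg CD8+ cells. WT CD4+ libraries went from 393, 481 and 255 to 112, 92.7 and 103 CPM, 4.19-fold lower (-2.07 ± 0.233, adjusted p = 1.41e-05). Cat-Tg CD4+ libraries held 282, 297 and 286 CPM pre-tx and 272, 214 and 249 CPM post-tx (-0.55 ± 0.225, adjusted p = 0.0556, or -0.69 and 0.023 without post-tx replicate 1), so that on day 7 Il4ra was 2.39-fold higher in Cat-Tg than in WT CD4+ cells (1.26 ± 0.228, adjusted p = 0.00357). The interaction was 1.51 ± 0.319 (adjusted p = 0.00413). These post-tx groups did not overlap. Beside this, the Cat-Tg CD4+ post-tx libraries held more myeloid markers (4150 against 1230 CPM, 9 of 12 higher) and more red cell markers (13300 against 882 CPM, 6 of 6 higher) than WT, and the part of those cells in the Il4ra difference was not tested. In Cat-Tg CD8+ cells Il4ra fell from 431, 258 and 314 to 89.2, 93.4 and 183 CPM (-1.63 ± 0.498, adjusted p = 0.0416), a call that ended without any 1 of the 6 libraries except post-tx replicate 3, with estimates from -1.78 to -1.45. WT CD8+ libraries held 271, 175 and 200 CPM pre-tx and 27.6, 164 and 103 CPM post-tx. Between Cat-Tg and WT CD4+ pre-tx libraries Il4ra differed by -0.26, and by -1.76 (adjusted p = 3.95e-06) with the T cell scaling. The second value lies close to the median of all genes under that scaling, given above, and moves with the genes at large.

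Il21r, the IL-21 receptor chain, had the smallest range of the 10. Its group means ran from 166 to 256 CPM, a 1.54-fold range, and all 7 neighbouring pairs of groups in that order overlapped. Groups further apart in that order could lie apart, as Cat-Tg CD8+ post-tx did from pre-tx (252 against 201 CPM). So did Cat-Tg from WT in CD4+ pre-tx libraries (175 against 244 CPM) and CD8+ from CD4+ in Cat-Tg post-tx libraries (252 against 166 CPM). Cat-Tg CD8+ libraries held 226, 204 and 173 CPM pre-tx and 267, 247 and 242 CPM post-tx, and Cat-Tg CD4+ libraries 198, 162 and 165 and then 167, 158 and 173 CPM. WT CD4+ libraries held 209, 313 and 210 CPM pre-tx and 269, 149 and 203 CPM post-tx. WT CD8+ libraries held 255, 219 and 294 CPM pre-tx and 74.6, 405 and 214 CPM post-tx. The overlap of these 2 groups holds for TMM CPM. In deposited TPM the same libraries held 134, 158 and 169 pre-tx and 19.3, 80.1 and 58.8 post-tx, which lay apart. By edgeR with TMM scaling Il21r passed in 0 of 13 comparisons, with 0 at an unadjusted p under 0.05 and log2 differences between -0.44 and 0.47. Limma-voom and DESeq2 also called 0, with 1 and 2 at an unadjusted p under 0.05. Per Il2rg in TPM, Il21r went from 0.154 ± 0.0218 to 0.0689 ± 0.01 in Cat-Tg CD8+ and from 0.201 ± 0.003 to 0.0567 ± 0.0109 in WT CD4+ cells.

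Il6ra, the IL-6 binding chain, had the largest falls of the 10, both of them in CD8+ cells. Cat-Tg CD8+ libraries went from 30.3, 42.8 and 22.4 to 1.81, 1.89 and 2.65 CPM, 16.9-fold lower (-4.08 ± 0.544, adjusted p = 0.000247). WT CD8+ libraries went from 82.3, 53.8 and 44 to 3.64, 1.7 and 2.73 CPM, 22.4-fold lower (-4.49 ± 0.556, adjusted p = 4.86e-05). No post-tx CD8+ library came near a pre-tx one. WT CD4+ libraries went from 45.3, 50.5 and 43.8 to 17.7, 14.6 and 20.5 CPM, 3.06-fold lower (-1.61 ± 0.298, adjusted p = 0.00113). Cat-Tg CD4+ libraries held 58.7, 35.5 and 35.9 CPM pre-tx and 23.3, 42.4 and 40.7 CPM post-tx, which overlapped (-0.62, adjusted p = 0.0942). On day 7 Il6ra was 1.99-fold higher in Cat-Tg than in WT CD4+ cells (0.99 ± 0.294, adjusted p = 0.042), but leaving out any 1 of the 6 libraries except Cat-Tg replicate 1 ended the call, at 0.87 to 1.1, the myeloid and red cell markers moved the same way as given for Il4ra and their part was not tested, and the interaction had an adjusted p of 0.094. Il6st, which encodes gp130, the signalling partner of Il6ra, fell in Cat-Tg cells of both types, by 3.16 ± 0.621 in CD8+ (adjusted p = 0.00418) and by 1.33 ± 0.355 in CD4+ cells (adjusted p = 0.00742) on the log2 scale.

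The 2 chains of the IL-12 receptor rose together in 3 of the 4 post-tx against pre-tx comparisons. Il12rb1, which IL-23 also uses, went from 19.1, 8.18 and 9.69 to 207, 206 and 332 CPM in Cat-Tg CD8+ cells, 18.1-fold (4.18 ± 0.828, adjusted p = 0.00447), and from 16.7, 43.7 and 3.61 to 90.6, 630 and 277 CPM in WT CD8+ cells, 14.1-fold (3.82 ± 0.813, adjusted p = 0.00317). The rise was 10.7-fold in Cat-Tg CD4+ cells, from 10.9, 10.9 and 22.6 to 281, 156 and 143 CPM (3.41 ± 0.411, adjusted p = 2.62e-05), and 3.71-fold in WT CD4+ cells, from 47.7, 32.8 and 22.5 to 186, 104 and 159 CPM (1.89 ± 0.386, adjusted p = 0.0023). Pre-tx and post-tx did not overlap in any of the 4. Scaled to T cell markers, the WT changes were 1.01 (adjusted p = 0.185) in CD8+ and 0.6 (adjusted p = 0.138) in CD4+ cells. Before transplantation Il12rb1 was 2.18-fold lower in Cat-Tg CD4+ libraries than in those labelled WT CD4+ (-1.13 ± 0.381, adjusted p = 0.0469), although the groups overlapped, and the call was lost without replicate 1 or 2 of either genotype, at -0.93 and -0.98 for Cat-Tg and -0.98 and -1.25 for WT.

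Il12rb2, the chain that carries the IL-12 signal and marks T helper 1 cells, was nearly silent in Cat-Tg CD8+ pre-tx libraries, at 0.704, 0.814 and 1.23 CPM, and reached 111, 66.8 and 73.4 CPM on day 7. This 82.6-fold rise was the largest fold change of the 10 in the 8 comparisons of genotype or transplantation (6.37 ± 1.05, adjusted p = 0.0013). WT CD8+ libraries held 6.78, 2.52 and 19.9 CPM pre-tx and 20.5, 0.811 and 10.8 CPM post-tx, which overlapped (0.2, adjusted p = 0.893), and leaving out post-tx replicate 1 or pre-tx replicate 1 or 2 turned the sign, to -0.91, -0.02 and -0.24. The interaction was 6.17 ± 1.27 (adjusted p = 0.00657). Pre-tx, Il12rb2 was 9.17-fold lower in Cat-Tg CD8+ libraries than in those labelled WT CD8+ (-3.2 ± 0.913, adjusted p = 0.0393), a call lost without any 1 of the 6 libraries except WT replicate 2, at -3.48 to -2.19. Post-tx the Cat-Tg libraries all lay above the WT libraries, with a difference of 2.97 ± 0.887 (adjusted p = 0.0948 by edgeR, 0.0358 by limma-voom and 0.00708 by DESeq2).

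In CD4+ cells Il12rb2 rose in both genotypes. Cat-Tg libraries went from 1.72, 1.52 and 4.92 to 26.8, 86.6 and 60.7 CPM, 17.1-fold (4.09 ± 0.507, adjusted p = 3.19e-05). WT libraries went from 2.36, 6.24 and 3.9 to 108, 128 and 106 CPM, 24.5-fold (4.61 ± 0.516, adjusted p = 1.33e-05). Relative to Il12rb1, Il12rb2 made up 0.743 ± 0.283 of its TPM in WT CD4+ post-tx libraries and 0.116 ± 0.0752 pre-tx, and in Cat-Tg CD8+ cells 0.353 ± 0.156 post-tx and 0.0726 ± 0.0391 pre-tx. Cat-Tg CD4+ libraries overlapped, between 0.0938 and 0.529 post-tx (median 0.392) and between 0.117 and 0.202 pre-tx. The lowest post-tx value was that of replicate 1, the library with the fewest counts of the 24 (11135713). In WT CD8+ libraries the median ratio was 0.0392 post-tx and 0.367 pre-tx, again with overlapping ranges.

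Il18r1, the IL-18 binding chain, rose 3.54-fold in WT CD8+ cells, from 12.8, 12.6 and 21 to 89.6, 29.1 and 44.7 CPM (1.82 ± 0.488, adjusted p = 0.0131). Without WT CD8+ post-tx replicate 1 the estimate was 0.96 (adjusted p = 0.113), without pre-tx replicate 1 it was 1.67 (adjusted p = 0.0598), and scaled to T cell markers it was -0.59 (adjusted p = 0.379). In WT CD4+ cells it rose 6.64-fold, from 10.5, 6.81 and 10 to 57.6, 69.2 and 85.1 CPM (2.73 ± 0.445, adjusted p = 0.000411). Cat-Tg CD4+ libraries began higher, at 18.9, 29.5 and 31 CPM, 3.09-fold above WT (1.63 ± 0.429, adjusted p = 0.0133), and held 22.3, 96.4 and 70.3 CPM post-tx, a difference that passed the test, among the fits without 1 library, only without post-tx replicate 1 (1.28, adjusted p = 0.00838). That pre-tx difference was 0.04 (adjusted p = 0.944) with the T cell scaling, and 1.39 and 1.5 (adjusted p = 0.0595 and 0.0555) without WT replicate 2 or 3. The CD4+ interaction of -1.84 ± 0.594 (adjusted p = 0.0379) was lost without any 1 of the WT pre-tx libraries (-1.57, -1.6 and -1.5), Cat-Tg pre-tx replicate 2 or 3 (-1.71 and -1.74), Cat-Tg post-tx replicate 3 (-1.91) or WT post-tx replicate 2 or 3 (-1.79 and -1.7), and was 0.19 (adjusted p = 0.866) with the T cell scaling. Cat-Tg CD8+ libraries held 23.6, 23.2 and 25.3 CPM pre-tx and 76.1, 59.6 and 48.3 CPM post-tx, which did not overlap (adjusted p = 0.0915). Its partner chain Il18rap rose in all 4 comparisons, by 2.36 ± 0.449 and 1.96 ± 0.443 in Cat-Tg and WT CD8+ cells (adjusted p = 0.00345 and 0.00461) and by 2.51 ± 0.424 and 2.71 ± 0.428 in Cat-Tg and WT CD4+ cells (adjusted p = 0.00036 and 0.000318).

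The WT CD8+ post-tx libraries were unlike each other in these genes. Replicate 1, with 18184813 counts, was the lowest of the 3 for Il2rb (465 CPM), Il2rg (492), Il4ra (27.6), Il12rb1 (90.6) and Il21r (74.6), and the highest for Il2ra (46.5), Il7r (68.1), Il12rb2 (20.5), Il18r1 (89.6) and Il6ra (3.64). Replicate 2 held the opposite extreme for all 10, and replicate 3 lay between them each time. The summed T cell list of these 3 libraries was 9160, 19700 and 13100 CPM, and the NK cell list 434, 45 and 187 CPM. How far the composition of these libraries sets the receptor values was not tested.

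CD8+ and CD4+ cells were compared in a fit of all 24 libraries, in 19076 genes. Before transplantation, in Cat-Tg, 0 of the 10 were higher in CD8+ cells and 1 was lower, Il2ra (52.4-fold, -5.71 ± 0.558, adjusted p = 8.31e-07), where 0.367% of all genes were higher and 1.16% lower. Foxp3 was lower in CD8+ cells in the same comparison (-4.39 ± 0.88, adjusted p = 0.00573). In Cat-Tg post-tx cells 0 were higher and 2 lower, Il6ra (18.5-fold, -4.21 ± 0.426, adjusted p = 8.92e-07) and Il7r (3.04-fold, -1.6 ± 0.438, adjusted p = 0.0275), against 1.49% and 4.51% of all genes. Il7r lost this call without any 1 of the 6 libraries except CD4+ replicate 1, at -1.75 to -1.34, and when same-numbered libraries were paired (adjusted p = 0.156).

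In WT post-tx cells 5 of the 10 were lower in CD8+ than in CD4+ cells and 0 higher, where 7.16% of all genes were lower and 5.98% higher. They were Il12rb2 (10.6-fold, -3.41 ± 0.769, adjusted p = 0.00397), Il6ra (6.66-fold, -2.73 ± 0.403, adjusted p = 7.68e-05), Il2ra (3.85-fold, -1.95 ± 0.462, adjusted p = 0.0058), Il7r (3.7-fold, -1.89 ± 0.443, adjusted p = 0.00526) and Il2rg (2.45-fold, -1.29 ± 0.296, adjusted p = 0.00446). When the fit held only these 6 libraries, 1 of the 10 passed, since the other 4 had adjusted p values from 0.0506 to 0.133. Without WT CD8+ post-tx replicate 2 the Il2ra and Il7r differences were -1.36 and -1.34 (adjusted p = 0.0595 and 0.0638). At an unadjusted p under 0.05 there were 1, 4 and 5 of the 10 in Cat-Tg pre-tx, Cat-Tg post-tx and WT post-tx cells. Myeloid markers moved with these contrasts: 6, 8 and 9 of 12 were lower in CD8+ cells, with sums of 1580 against 1650, 625 against 4150 and 275 against 1230 CPM, and their part was not tested. The genes called numbered 1, 3 and 5 by limma-voom and 1, 2 and 5 by DESeq2, all of them lower in CD8+ cells. No share of all genes stands beside the counts at an unadjusted p or by these 2 tools, so they cannot be set against the genes at large.

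The rest of the pathway was read from lists of 34 other interleukin and related receptor chains, 10 ligands and 15 JAK, STAT and SOCS genes, of which 27 or 28, 4 or 9, and 15 were tested in the fits of 1 cell type. Of the 4 ligands tested in CD8+ cells, 1 passed in 1 of the 4 comparisons of genotype or transplantation: Il12a, a subunit of IL-12 that B cells and myeloid cells can also make, fell in WT CD8+ libraries from 18.8, 17 and 11.7 CPM to 2, 0 and 2 counts (adjusted p = 0.00162), beside the fall of all 14 B cell markers. Of all genes 10.4% fell in that WT CD8+ comparison. In WT CD4+ cells 4 of 9 rose after transplantation and 1 fell, against 14.7% and 9.61% of all genes. Il2 was higher by 6.52 ± 1.04 on the log2 scale (adjusted p = 0.000347), Il4 by 3.5 ± 0.625 (adjusted p = 0.000858) and Il21 by 3.79 ± 0.992 (adjusted p = 0.0115). Cat-Tg CD4+ cells had 1 of 9 higher and 1 lower, against 16.2% and 28.9% of all genes. The single fall in WT CD4+ and both Cat-Tg CD4+ counts lie near or under the share of all genes. Il2, Il4 and Il21 had negative interactions, -7.39 ± 1.28, -4.08 ± 0.827 and -5.28 ± 1.33 (adjusted p = 0.00118, 0.00335 and 0.0118), and all 3 are low transcripts, with means in the WT CD4+ post-tx libraries of 5.31, 8.5 and 22.4 CPM. Il2 averaged 0.0444 CPM in the WT CD4+ pre-tx libraries, below what 3 counts make, so its fitted fold is not a measured size.

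Among the JAK, STAT and SOCS genes, which relay and restrain these receptors, 5 of 15 rose and 0 fell after transplantation in Cat-Tg CD8+, 2 and 1 in WT CD8+, 8 and 0 in Cat-Tg CD4+ and 9 and 0 in WT CD4+ cells. Of all genes, 8.72%, 13.2%, 16.2% and 14.7% rose in these comparisons, so the 2 of 15 in WT CD8+ lie at the share of all genes. Cish, a feedback inhibitor induced by STAT5, rose in all 4, by 3.66 ± 0.612 in Cat-Tg CD8+ (adjusted p = 0.00147), 2.37 ± 0.579 in WT CD8+ (adjusted p = 0.00776), 2.62 ± 0.41 in Cat-Tg CD4+ (adjusted p = 0.000196) and 3.09 ± 0.419 in WT CD4+ cells (adjusted p = 8.11e-05). In WT CD8+ cells the pre-tx and post-tx values of Cish overlapped. Stat2, which acts downstream of interferon receptors, moved in opposite directions by genotype in CD8+ cells, by 2.1 ± 0.479 in Cat-Tg (adjusted p = 0.00997) and by -2.7 ± 0.49 in WT (adjusted p = 0.000965). Stat4, the STAT that IL-12 activates, rose by 2.96 ± 0.444 in WT CD4+ cells (adjusted p = 0.000198) and was higher in Cat-Tg than in WT CD4+ cells pre-tx by 2.06 ± 0.429 (adjusted p = 0.00309), with an interaction of -2.97 ± 0.595 (adjusted p = 0.00305). The list's median log2 fold changes after transplantation were 1.05, 0.19, 1.11 and 0.95 in that order of groups.

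Of the other receptor chains, 4 of 27 rose and 2 fell after transplantation in Cat-Tg CD8+ cells, 4 and 8 in WT CD8+, 7 of 28 and 4 in Cat-Tg CD4+, and 5 and 5 in WT CD4+ cells. With 8.72%, 13.2%, 16.2% and 14.7% of all genes higher and 5.23%, 10.4%, 28.9% and 9.61% lower, the counts of rises in WT CD8+ and WT CD4+ cells lie near the share of all genes. Il10ra, which binds IL-10, rose in Cat-Tg CD8+ cells (2.99 ± 0.375, adjusted p = 0.000149) and was lower in Cat-Tg than in WT pre-tx, by 2.57 ± 0.368 in CD8+ (adjusted p = 0.000662) and 1.79 ± 0.263 in CD4+ cells (adjusted p = 0.000262). Csf2ra and Csf2rb, the receptor for GM-CSF, which myeloid cells carry, were lower in Cat-Tg than in WT in both pre-tx comparisons, and in CD4+ post-tx cells they were higher in Cat-Tg, by 2.35 ± 0.43 and 1.8 ± 0.433 (adjusted p = 0.00383 and 0.0157). The myeloid list moved the same way, with 7 of 12 and 6 of 12 lower pre-tx and 9 of 12 higher post-tx.

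Kallisto divides reads among the transcripts of a gene, and for some of the 10 the division matters. Il4ra-205, annotated as a target of nonsense-mediated decay, held 84.1% ± 4.44 of the Il4ra counts (SD over 24 libraries) and the coding Il4ra-201 14.9% ± 4.44, with group means of Il4ra-205 from 80.6% to 89.4%. Il2rb-201 held 58.7% ± 4.37 and the shorter Il2rb-202 41.3% ± 4.37, with group means of the first from 56.8% to 62.4%. Il21r-201 held 73.7% ± 1.56 in Cat-Tg CD4+ pre-tx and 57.5% ± 9.38 in Cat-Tg CD4+ post-tx libraries. Il6ra-202, the longer of its 2 transcripts, held 30% ± 4.12 and 12.9% ± 1.1 in the same groups. The summed counts, used for the tests and the CPM levels, do not depend on how reads were shared within a gene. Summed TPM, used for the chain ratios and the order of genes, do depend on it where transcripts differ in length. These shares are estimates of the authors' run.

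Levels can be set between genes per length. By mean TPM over the 24 libraries the order was Il2rg (915), Il2rb (390), Il21r (96.8), Il4ra (60.6), Il7r (45.2), Il12rb1 (42), Il18r1 (15.4), Il12rb2 (14.2), Il2ra (11.5) and Il6ra (8.8). The top 3 places were the same by CPM per kilobase, and the places of Il7r and Il12rb1, and those of Il18r1 and Il12rb2, changed over.

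Across the 24 libraries, which share the groups and the composition differences above, Il2rb and Il12rb1 were the most alike pair of the 10 (Pearson r = 0.89, Spearman rho = 0.84, log2 CPM). The protein-coding genes most like each were, among others, Lpcat4 (0.982) and Cxcr3 (0.978) for Il2rb, Irs2 (0.954) and Chst15 (0.93) for Il6ra, Nrp1 (0.942) and Hnrnpll (0.909) for Il2ra, and Cxcr6 (0.94) and Serpinb6b (0.93) for Il18r1. For Il7r they were Bnip3l and Oxr1 (0.93 each), for Il12rb2 Wipf1 (0.914) and Crybg1 (0.905), for Il12rb1 Acot7 (0.945) and Nccrp1 (0.94), for Il2rg Slc25a12 (0.944) and Abr (0.928), for Il4ra Idh2 (0.894) and Cyp4f13 (0.868), and for Il21r Kdm4b (0.868) and Herpud1 (0.85). Nrp1 is one of the 6 regulatory T cell markers. The correlation with the B cell score was -0.88 for Il18r1, -0.84 for Il2rb and -0.69 for Il12rb1, and 0.69 for Il6ra and 0.6 for Il4ra. These coefficients describe 24 libraries and carry no test.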

How the data were processed

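The deposited tables hold 1 row per transcript with the estimated counts and the TPM that the authors obtained with Kallisto 0.46.2, 1 table for each of the 24 libraries. RNA was amplified with SMART-Seq HT and tagged with Nextera XT. Per the labels the genome build was mm9, and the release of the transcript index is not given in the sources used here. Transcripts were assigned to genes by GENCODE M21 (116374 of 117497, carrying 99.57% to 99.75% of the counts), and the estimated counts were summed per gene and rounded. Totals per library ranged from 11135713 to 50519825, and intervals and floors set by counts cover counting error only. Genes over 1 CPM in at least 3 libraries were kept, scaled by TMM and tested with the quasi-likelihood F test of edgeR 4.0.16 in R 4.3.3, with Benjamini-Hochberg adjustment over all genes tested and a threshold of 0.05. The 4 groups of each cell type were fitted together, and CD8+ was compared with CD4+ in a fit of all 24 libraries. The authors' methods use limma on normalised TPM, and limma-voom (3.58.1) and DESeq2 (1.42.0) were run as alternatives, with DESeq2 size factors, scaling to 12 T cell markers, no filter, length-scaled TPM, a log2 fold change of at least 2, a replicate block, a B cell score as covariate, only the libraries compared, and each library left out. A fit without the WT pre-tx libraries was added after seeing the data. The tests were tried on simulated data with known changes. Values in sentences on levels are TMM CPM. The deposited TPM were used between genes, for ratios, and beside the CPM of Il2rg and Il21r in WT CD8+ cells.

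All 10 receptor genes were named, with fold changes printed mainly where a comparison or its interaction passed, a few others being named after their values were seen. Of each further list, at most 3 called genes with the lowest adjusted p in a comparison were named, and the Cat-Tg CD4+ values of Il6st and Il18rap and the values of Foxp3 were added after they were seen. The receptor genes and the lists were chosen with earlier results of these data known. Replicates were 3 mice a group. The labels do not tie replicate numbers to animals, the CD4+ and CD8+ cells of 1 mouse may share a number or not, and WT libraries were also used in other work of the laboratory. Same-numbered libraries deviated together with correlations from -0.247 to 0.201 and in no comparison did all 3 pairs pass 0.1, so libraries were not treated as paired. No 2 libraries were identical.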

Additional observations from a re-analysis of the deposited data

Results flagged for a closer look

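For 7 tests the change after transplantation differed between Cat-Tg and WT cells, by the interaction term of edgeR with Benjamini-Hochberg adjustment. In CD8+ cells these were Il12rb2, with 6.17 on the log2 scale (adjusted p = 0.00657), Il2ra with 4.06 (adjusted p = 0.00789) and Il7r with -2.44 (adjusted p = 0.0194). In CD4+ cells they were Il7r with -3.93 (adjusted p = 0.000375), Il2ra with -3.24 (adjusted p = 0.000127), Il4ra with 1.51 (adjusted p = 0.00413) and Il18r1 with -1.84 (adjusted p = 0.0379). Among all genes 10.7% passed this test in CD8+ and 21.4% in CD4+ cells, and in both cell types every one of the terms rests on the libraries labelled WT pre-tx, whose B cell markers summed to 13500 and 13000 CPM. In a fit with the B cell score as a covariate, which nearly coincides with the groups, 0 of the 10 receptor genes passed in either interaction, so all 7 were lost. Nearly no gene of any kind passed there, as given below, so this loss says nothing about the receptor genes in particular.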

How the results depend on the processing

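Of 63 gene results, 57 kept direction and side of the threshold by limma-voom, 59 by DESeq2, 59 with DESeq2 size factors, 57 without the filter, 62 with length-scaled TPM, 44 with a log2 fold change of at least 2, 43 with the T cell scaling and 16 with the B cell score as covariate, as did 50 of 56 with only the libraries compared and 363 of 420 with 1 library left out. The B cell score nearly coincides with the groups. The causes of the changes below were not tested.

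With the B cell score, 0 of the 10 were called in the CD8+ and CD4+ pre-tx comparisons of genotype, in the 4 comparisons of post-tx with pre-tx and in both interactions, and 1 each in CD4+ post-tx and in CD8+ against CD4+ Cat-Tg post-tx. Over all genes it called 0 in both pre-tx genotype comparisons, both WT post-tx against pre-tx comparisons and the CD4+ interaction, 1 in the CD8+ interaction, 12 and 691 in CD8+ and CD4+ post-tx, 53 and 11 in Cat-Tg CD8+ and CD4+ post-tx against pre-tx, and 163 and 708 in CD8+ against CD4+ Cat-Tg pre-tx and post-tx. Signs turned for Il18r1 (CD4+ pre-tx -0.04, CD4+ post-tx 0.21, Cat-Tg CD4+ -0.67, WT CD4+ -0.92, WT CD8+ -1.73, CD4+ interaction 0.25), Il7r (CD8+ post-tx -0.1), Il4ra (Cat-Tg CD8+ 0.54), Il2ra and Il12rb2 (WT CD8+ -2.6 and -8.55).

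With the T cell scaling, where medians of all genes ran from -2.78 to 2.17, the receptor genes called numbered 8 and 9 in CD8+ and CD4+ pre-tx, 1 in CD8+ post-tx, and 8 in each interaction. All genes called were 9817 and 8076 pre-tx, 11221 and 8460 in WT CD8+ and CD4+ post-tx against pre-tx, 6654 and 6716 in the interactions and 2158 in CD8+ against CD4+ Cat-Tg post-tx. Signs turned for Il18r1 (WT CD8+ -0.59, CD4+ post-tx 0.23, CD4+ interaction 0.19), Il2ra and Il12rb2 (WT CD8+ -0.68 and -2.14), Il7r (CD4+ post-tx 0.03) and Il4ra (Cat-Tg CD4+ 0.07).

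DESeq2 called 1 receptor gene in CD8+ post-tx, and over all genes 2615 in CD8+ pre-tx, 1361 in CD8+ post-tx, 2674 in CD4+ post-tx, 4283 in Cat-Tg CD8+ post-tx against pre-tx, 2871 in the CD8+ interaction, and 637 and 1987 in CD8+ against CD4+ Cat-Tg pre-tx and post-tx. Il7r in CD8+ post-tx was just below 0, at 0 after rounding, by DESeq2 and with its size factors. Limma-voom called 2 receptor genes in CD8+ post-tx and gave -0.35 for Il12rb2 in WT CD8+ cells. Length-scaled TPM called 1 there and gave -0.21 for Il2ra in Cat-Tg CD4+ cells. Without the filter, 1 receptor gene each was called in CD8+ post-tx, CD4+ post-tx and CD8+ against CD4+ Cat-Tg post-tx, and 541 genes in CD8+ post-tx.

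At a log2 fold change of at least 2, 2 receptor genes each were left in CD4+ pre-tx, Cat-Tg CD4+ post-tx against pre-tx, the CD4+ interaction and CD8+ against CD4+ WT post-tx, 1 in CD8+ against CD4+ Cat-Tg post-tx and 0 in CD4+ post-tx. All genes called were then 1322 in CD4+ pre-tx, 4642 and 1713 in Cat-Tg and WT CD4+ post-tx against pre-tx, and 1053 in CD8+ against CD4+ WT post-tx. With only the libraries compared, 1 receptor gene each was called in CD4+ post-tx and in CD8+ against CD4+ WT post-tx, and 2311, 30, 1017, 4465, 2391 and 869 genes in CD8+ pre-tx, CD8+ post-tx, CD4+ post-tx, Cat-Tg CD8+, WT CD8+ and CD8+ against CD4+ WT post-tx. Without the WT pre-tx libraries 140 genes were called in CD8+ post-tx, against 266. The replicate block, fitted although the numbers show no pairing, left 110 genes in CD8+ post-tx, 744 and 1603 in CD8+ against CD4+ Cat-Tg and WT post-tx, and 1 receptor gene in the Cat-Tg one, and 59 of 63 gene results kept their call under it.

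Shares by TPM instead of counts were 81.1% for Il2ra-201, 37.2% for Il2rb-201, 94.8% for Il2rg-201, 90.8% for Il7r-201 and 39.6% for Il18r1-202, and by CPM per kilobase Il18r1 was at place 8.

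Without 1 library at a time, over all genes between 648 and 1017 were called in CD8+ pre-tx, 5 and 571 in CD8+ post-tx, 973 and 2544 in Cat-Tg CD8+ post-tx against pre-tx, 991 and 2510 in the CD8+ interaction, 2287 and 3066 in CD4+ pre-tx, 772 and 1842 in CD4+ post-tx, 2539 and 4137 in WT CD4+ post-tx against pre-tx, 2376 and 3545 in the CD4+ interaction, and 178 and 310, 722 and 998, and 1583 and 3357 in CD8+ against CD4+ Cat-Tg pre-tx, Cat-Tg post-tx and WT post-tx. Receptor genes called ranged from 0 to 1 in CD8+ post-tx, 2 to 4 in CD4+ pre-tx, 1 to 2 in CD4+ post-tx and CD8+ against CD4+ Cat-Tg post-tx, 5 to 8 in Cat-Tg CD4+ post-tx against pre-tx and 3 to 6 in CD8+ against CD4+ WT post-tx. Signs turned for Il7r in CD8+ post-tx (-0.14 to 0.63), Il18r1 in CD4+ post-tx (-0.63 to 0.17) and Il12rb2 in WT CD8+ (-0.91 to 1.21).

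Depth limits the low values: at 3 counts a library reads 0.0594 to 0.269 CPM, so the Cat-Tg CD8+ pre-tx levels of Il2ra and Il12rb2 rest on few counts.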
